A study of Drosophila melanogaster with 8 samples.

Results

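Steroid and juvenile hormone signalling was followed through 10 genes in adult fly brain cells sorted by fruitless (fru) transcription. The genes are the ecdysone receptor subunits EcR and usp, the juvenile hormone receptors Met and gce, the ecdysone response factors br, Eip74EF, Eip75B and Eip93F, the nuclear receptor ftz-f1 and the juvenile hormone response factor Kr-h1. They were taken by gene name from the reference rows of each expression table, 10 of 17137 reference genes. All 10 were among the 10111 genes that reached 1 TPM (transcript abundance per gene length, scaled to the same total in every library) in at least 2 of 8 libraries and were therefore tested.

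All flies were adults of 2 to 7 days of the w1118 strain, and every group carried the same transgenes: UAS-mCD8-GFP opposite MB247-Gal80 on 1 chromosome and a Fru-GAL4 allele on another. The labels give that allele as Fru-GAL4/+, whereas the study's methods place it over a balancer chromosome. Fru-GAL4 drives a membrane GFP from the fruP1 promoter, and MB247-Gal80 silences it in mushroom body Kenyon cells, which therefore fell into the unlabelled pool. Optic lobes were removed, and GFP-positive (fru+) and GFP-negative (fru-) cells were collected from pooled male and female brains, giving the groups male fru+, female fru+, male fru- and female fru- with 2 libraries each. The FruM protein is made from fruP1 transcripts of males. Because some Kenyon cells transcribe fru, the male fru- pool held fru-expressing cells too. The fru- pool is every unlabelled viable cell, so it is a mixture of neurons, Kenyon cells and glia rather than a defined cell type.

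Ecdysone enters cells and binds EcR, which works as a dimer with Usp, and the bound dimer switches on a first tier of transcription factors, among them br, Eip74EF and Eip75B, that in turn control later genes. Juvenile hormone binds the related proteins Met and Gce, which induce Kr-h1, a zinc finger factor that holds back the adult program in larvae. In the nervous system these hormones are known for timing the remodelling of neurons at metamorphosis, and EcR is known to act in the fru neurons of males.

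In the annotation of the dm6 build, whose gene spans were identical to those in the tables, EcR (FBgn0000546) lies on the minus strand at chr2R:6087873-6169087, usp (FBgn0003964) on the minus strand at chrX:2038798-2042311, Met (FBgn0002723) on the plus strand at chrX:11616124-11621280 and gce (FBgn0261703) on the plus strand at chrX:15297766-15319074. The response factors br (FBgn0283451, chrX:1575132-1664869, plus), Eip74EF (FBgn0000567, chr3L:17558672-17619325, minus), Eip75B (FBgn0000568, chr3L:17950953-18064696, minus) and Eip93F (FBgn0264490, chr3R:21949114-22014539, plus) span 60.7 to 113.7 kb each. The remaining members are ftz-f1 (FBgn0001078, chr3L:18750607-18801309, minus) and Kr-h1 (FBgn0266450, chr2L:6082603-6096498, plus). Gene span differed widely, from 3.5 kb for usp to 113.7 kb for Eip75B, and the number of annotated transcripts ran from 2 for usp, Met and Kr-h1 to 16 for br. Several members overlap other annotated genes on the same or the opposite strand, and the libraries did not keep strand. Reads of usp and of Actn and CG4313, of gce and its antisense RNAs, and of Kr-h1 and CG45075 (same strand) cannot be fully told apart. EcR overlaps 25 other annotated genes or elements (11 on its strand), Eip75B 5 (2 on its strand), ftz-f1 3 (all on its strand) and br 2 (0 on its strand).

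The libraries held 3.16 to 4.93 Gb of aligned bases, and 9124 to 9397 reference genes reached 1 TPM. fru itself was at 56.2 to 71.6 TPM in the 4 fru+ libraries and at 3.75 to 15.1 TPM in the 4 fru- libraries. The roX1 and roX2 RNAs of male dosage compensation summed to 3794 to 5853 TPM in the male libraries and 3.08 to 9.20 TPM in the female ones, as the labels give the sexes. The 4 neuron markers nSyb, elav, brp and Syt1 summed to 2081 to 3262 TPM in fru+ and 1838 to 3279 TPM in fru- libraries. Glial markers differed between the pools: the 7 summed to 500.0 to 818 TPM in fru+ and 936 to 2373 TPM in fru- libraries, all 7 were lower in fru+, and alrm and nrv2 passed the test. Kenyon cell markers summed to 696 to 1123 TPM in fru+ and 998 to 1230 TPM in fru- libraries, with 6 of 7 lower in fru+ and ey and prt past the test. That sum, here and below, was mostly sNPF, which averaged 820 TPM of a mean sum of 964 TPM over the 8 libraries. Of the other tissues that handle these hormones, 6 fat body markers summed to 3.24 to 8.81 TPM in fru+ and 5.96 to 17.9 TPM in fru- libraries, 4 hemocyte markers to at most 2.08 TPM, and jhamt, which marks the corpora allata, was at 0 in 6 of 8 libraries, with its highest value of 3.79 TPM in female fru- replicate 1.

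All 10 members were detected in all 8 libraries, with usp highest and Eip74EF lowest. On the TPM scale, which is per length, the mean over 8 libraries ran from usp (98.1 ± 23.1 TPM, SD, n = 8) through ftz-f1 (77.4 ± 16.9), Eip75B (60.1 ± 36.4), Met (58.9 ± 11.03), EcR (41.8 ± 12.0), Kr-h1 (24.6 ± 5.58), br (15.6 ± 7.04), Eip93F (10.2 ± 4.23) and gce (6.13 ± 0.726) to Eip74EF (3.23 ± 1.04). Among the tested genes, mean usp stood at percentile 80.6 and mean Eip74EF at percentile 21.4. Met exceeded EcR, EcR exceeded Kr-h1 and Kr-h1 exceeded br in each of the 8 libraries, whereas Eip75B exceeded Met in 4 of 8 and ftz-f1 exceeded Eip75B in 5 of 8, so those neighbours were not separated. Among neighbours in this order only gce and Eip74EF, the lowest pair, had ranges over the 8 libraries that did not overlap.

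**Figure D1:**
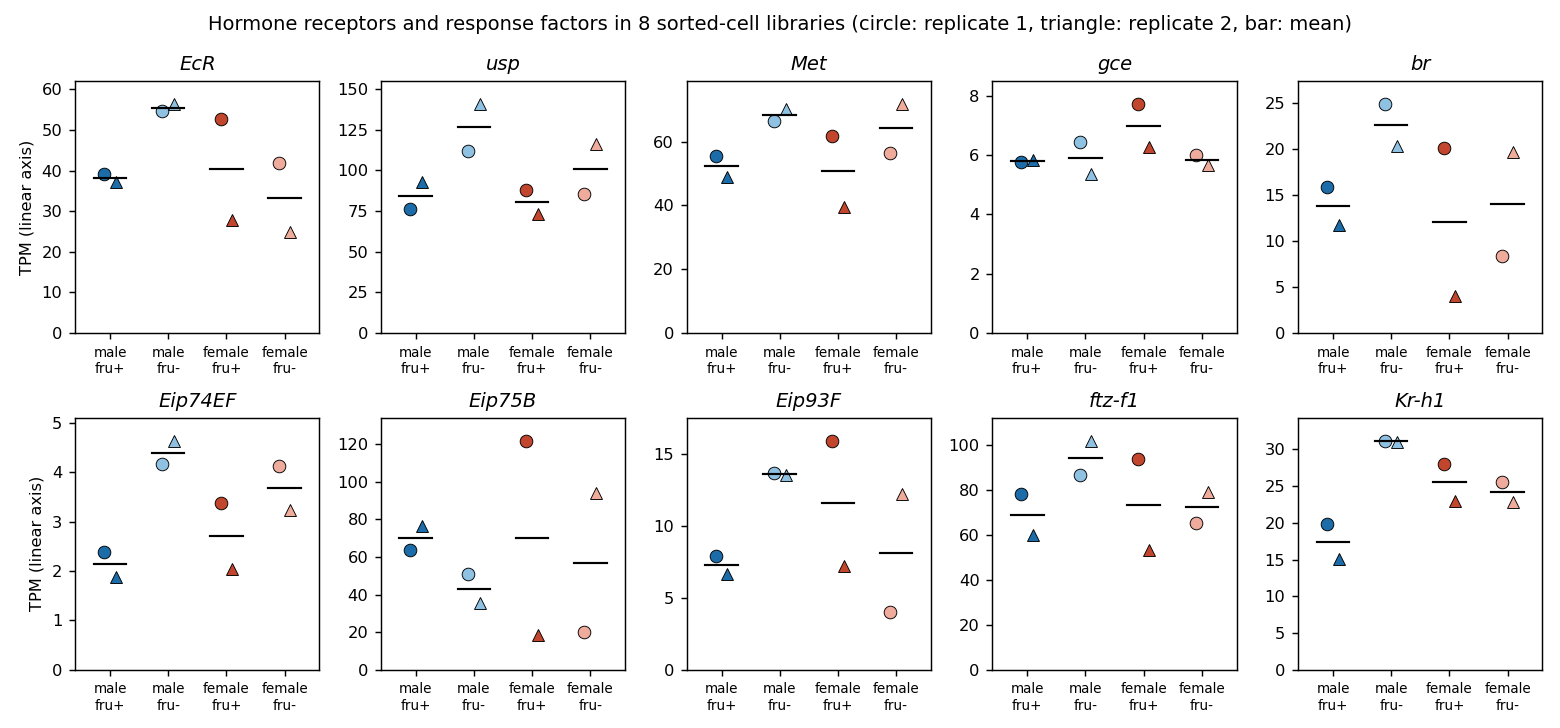
TPM of the 10 hormone genes (linear vertical axes, each starting at 0) in the 2 libraries of each cell group; circles are replicate 1, triangles replicate 2 and bars the mean of the 2. Male replicates lie close together, and for 8 of the 10 genes both male fru+ points lie below both male fru- points, while the female replicates of Eip75B, br and Eip93F lie far apart.

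No hormone gene passed the test in any comparison. Expression was compared with limma on log2(TPM + 1), with Benjamini-Hochberg adjustment over all 10111 tested genes and a threshold of 0.05, so each difference below is on the log2(TPM + 1) scale, which understates changes of genes at a few TPM. In male fru+ against male fru- cells 0 of 10 members passed, against 0.514% of tested genes. In female fru+ against female fru- cells 0 of 10 passed, against 0.653% of tested genes (66 genes, or 34 with the replicate number as a block). Between the sexes 0 of 10 passed in fru+ cells (0.089% of tested genes) and 0 of 10 in fru- cells (0.109%). With the sexes combined, 0 of 10 passed for fru+ against fru- (5.29% of tested genes), and 0 of 10 for male against female (0.227%). For the interaction, whether the fru+ to fru- difference itself differed between the sexes, 0 of 10 passed, as did 0% of tested genes. At an unadjusted p under 0.05 the members numbered 2 in the male fru comparison, 0 in the female one, 0 and 1 between the sexes in fru+ and fru- cells, 2 for all fru+ against all fru-, 0 for all males against all females and 1 for the interaction. In the same order, 1354, 1488, 429, 505, 2378, 678 and 237 of all tested genes had such a p. With 2 libraries a group these intervals are wide, and a missed threshold does not show that levels were alike.

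In male brains the hormone genes lay mostly lower in fru+ than in fru- cells. Both male fru+ libraries were below both male fru- libraries for 8 of 10 members, EcR, usp, Met, br, Eip74EF, Eip93F, ftz-f1 and Kr-h1, whereas 34.1% of tested genes had that order. Eip75B had the opposite order and gce overlapped. The median difference over the members was -0.55, beside -0.14 over all tested genes. Rescaling the libraries by median-of-ratios size factors moved the median of all tested genes to -0.01 and that of the members to -0.41, and the same 8 members still did not overlap, beside 25.0% of tested genes. The male fru- libraries also had the higher glial sums (1666 and 1838 TPM, against 729 and 818 TPM in male fru+) and Kenyon cell sums (1030 and 1230 TPM, against 696 and 746 TPM). Their part in these differences was not tested, and in bulk RNA fewer cells of a type and less RNA per cell cannot be told apart.

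In female brains that order was absent. The female fru+ libraries were both below the female fru- libraries for 0 of 10 members, beside 29.4% of tested genes, and both above them for gce alone, beside 14.1%. The median difference over the members was 0.02, beside -0.11 over all tested genes. Without female fru+ replicate 1 the number of members with a negative female difference rose from 5 to 8, and without female fru+ replicate 2 it fell to 3, so the female direction depended on which library was kept. With the sexes combined, 8 of 10 members had a negative difference, but none had all 4 fru+ libraries below all 4 fru- libraries, an order that 11.6% of tested genes showed.

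The receptor pair for ecdysone was well expressed in all groups. EcR, the hormone-binding subunit, measured 39.1 and 37.2 TPM in fru+ and 54.6 and 56.4 TPM in fru- cells of males, and 52.8 and 27.8 TPM in fru+ and 41.9 and 24.8 TPM in fru- cells of females, with replicate 1 first in each pair here and below. In these reference rows male replicates lay within 2 TPM of each other, and the female groups each held a high replicate 1 and a low replicate 2. That pattern depended on the row used. In the assembled loci described below, EcR was at 62.0 and 35.6 TPM in fru+ and 71.4 and 72.2 TPM in fru- cells of males. In females it was at 52.0 and 61.7 TPM in fru+ and 54.9 and 48.7 TPM in fru- cells. The male fru+ to fru- difference of EcR was -0.53 (SE 0.32, 95% interval -1.25 to 0.19, adjusted p = 0.52 by limma) and the female one 0.24 (SE 0.32, interval -0.47 to 0.96, adjusted p = 0.76 by limma). The male and female differences differed by -0.77 (interval -1.79 to 0.24, adjusted p = 1.00 by limma). In fru- cells EcR was 0.76 higher in males (interval 0.05 to 1.48, unadjusted p = 0.039, adjusted p = 0.93 by limma), and both male libraries were above both female libraries. It was 0.37 higher in the replicate 1 sorts and 1.16 higher in the replicate 2 sorts.

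The partner of EcR, usp, encodes the fly RXR homologue and was the most abundant member. Its levels were 76.4 and 92.7 TPM in fru+ and 112 and 141 TPM in fru- cells of males, and 88.0 and 72.9 TPM in fru+ and 85.7 and 116 TPM in fru- cells of females. All fru+ libraries but female replicate 1 and male replicate 2 were below every fru- library. usp had the smallest p of any member over all fru+ against all fru-, a difference of -0.44 (SE 0.15, interval -0.79 to -0.10, unadjusted p = 0.017, adjusted p = 0.12 by limma, 0.10 with the replicate block). In males the difference was -0.57 (SE 0.22, adjusted p = 0.30 by limma) and in females -0.31 (SE 0.22, interval -0.80 to 0.17, adjusted p = 0.53 by limma). Within a library usp exceeded EcR by 1.67 to 4.69 times.

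Both juvenile hormone receptors were present, with Met far above its paralogue gce in the reference rows. Met measured 55.6 and 49.0 TPM in fru+ and 66.5 and 70.2 TPM in fru- cells of males, and 61.9 and 39.5 TPM in fru+ and 56.5 and 71.8 TPM in fru- cells of females. Its combined fru+ to fru- difference was -0.37 (SE 0.17, interval -0.75 to 0.01, adjusted p = 0.22 by limma), nearly equal in males (-0.38) and females (-0.36), with an interaction of -0.02 (interval -0.78 to 0.74). Of the 4 fru+ libraries only female replicate 1 exceeded any fru- library. In the reference rows gce was the steadiest member, with a range of 1.44 times from the lowest to the highest. It measured 5.76 and 5.83 TPM in fru+ and 6.45 and 5.37 TPM in fru- cells of males, and 7.72 and 6.25 TPM in fru+ and 5.99 and 5.65 TPM in fru- cells of females. Its differences were -0.02 in males (interval -0.70 to 0.66) and 0.22 in females (interval -0.46 to 0.90). The male value of gce turned to 0.10 under median-of-ratios scaling. In the assembled loci described below gce was less steady, at 20.2 to 55.6 TPM.

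In the reference rows Eip75B, br and Eip93F had the highest ratios of the highest to the lowest library (6.60, 6.16 and 3.95), and they varied within groups. Eip75B, a nuclear receptor that binds heme, measured 63.7 and 76.3 TPM in male fru+ cells and 51.0 and 35.4 TPM in male fru- libraries, but 121.9 and 18.5 TPM in female fru+ and 20.0 and 94.0 TPM in female fru- libraries. Its highest and lowest values thus came from the same cell group. The difference between female replicates was 2.66 on the log2(TPM + 1) scale in fru+ cells, larger than that of 99.8% of tested genes, and 2.18 in the opposite direction in fru- cells, larger than that of 99.3%. The female fru+ to fru- difference of Eip75B was accordingly 2.55 in the replicate 1 sorts and -2.29 in the replicate 2 sorts, with a mean of 0.13 (SE 0.81, interval -1.67 to 1.93). In males it was 0.70 (SE 0.81, interval -1.10 to 2.50, adjusted p = 0.73 by limma). The spread of Eip75B was smaller in the assembled loci described below. There it had 218 and 140 TPM in female fru+ and 96.4 and 226 TPM in female fru- libraries. Eip74EF (9.71 to 161 TPM) and ftz-f1 (20.0 to 328 TPM) ranged more widely there than Eip75B (96.4 to 226 TPM).

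br, a BTB zinc finger gene of many isoforms, followed the same female libraries. Its levels were 15.8 and 11.8 TPM in fru+ and 24.9 and 20.4 TPM in fru- cells of males, and 20.0 and 4.04 TPM in fru+ and 8.35 and 19.7 TPM in fru- cells of females. Eip93F, a helix-turn-helix factor that specifies adult fates, measured 7.90 and 6.69 TPM in fru+ and 13.7 and 13.6 TPM in fru- cells of males, and 15.9 and 7.21 TPM in fru+ and 4.04 and 12.3 TPM in fru- cells of females. For br and Eip93F, as for Eip75B, female fru+ replicate 2 and female fru- replicate 1 were the low libraries of their groups. In males br differed by -0.68 (SE 0.60, interval -2.01 to 0.65) and Eip93F by -0.82 (SE 0.48, interval -1.89 to 0.25, adjusted p = 0.50 by limma). In females the br difference was 1.17 in the replicate 1 sorts and -2.04 in the replicate 2 sorts, and that of Eip93F was 1.75 and -0.69. The interaction of Eip93F was -1.35 (SE 0.68, interval -2.87 to 0.16, adjusted p = 1.00 by limma).

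**Figure D2:**
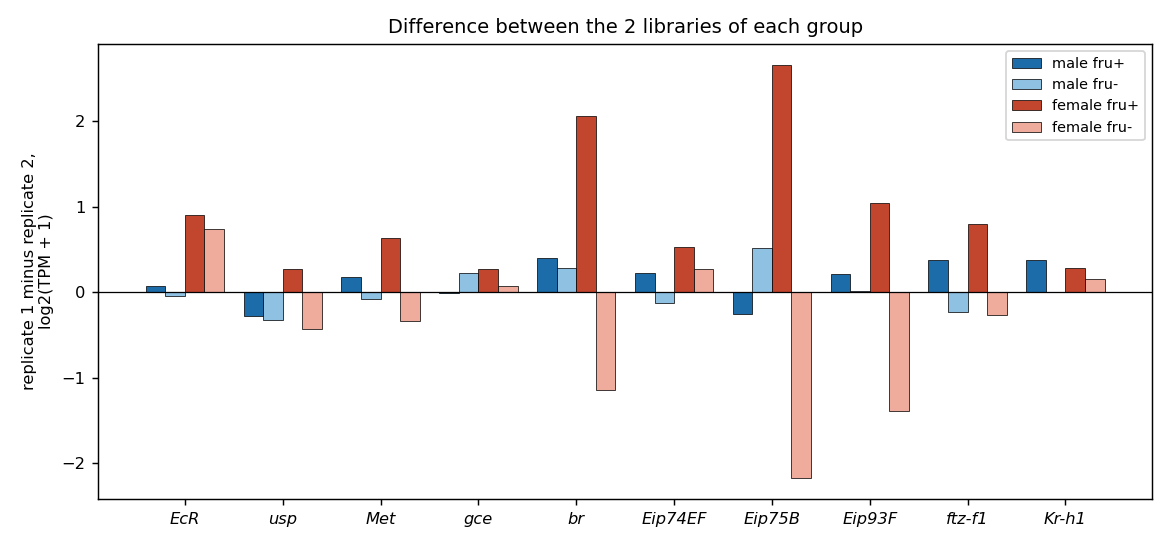
Replicate 1 minus replicate 2 on the log2(TPM + 1) scale (vertical axis) for the reference row of each hormone gene in each cell group. Each bar is the difference between 2 libraries. The largest bars are those of Eip75B, br and Eip93F in the female groups, upward in fru+ (2.66, 2.06 and 1.05) and downward in fru- (-2.18, -1.15 and -1.40), while no male bar reaches 1.

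In the reference rows replicates differed by more than 1 on this scale for 3 of 10 members in female fru+ cells (8.35% of tested genes). The same 3, Eip75B, br and Eip93F, did so in female fru- cells (10.4% of tested genes), and 0 of 10 in either male group. The replicates also differed in their markers. Female fru+ replicate 2 had a neuron marker sum of 2081 TPM beside 3262 TPM in replicate 1, and female fru- replicate 1 had 1838 TPM beside 2162 TPM in replicate 2. The glial sum was 2373 TPM in female fru- replicate 1 and 936 TPM in replicate 2. The Kenyon cell sum was 1053 and 998 TPM in the same libraries. Of its 7 genes, mamo was at 6.53 and 80.4 TPM while ey was at 30.8 and 31.0 TPM and prt at 45.3 and 29.2 TPM. The part of these shifts in the Eip75B, br and Eip93F values was not tested.

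Eip74EF, an ETS-domain factor and the least abundant member, measured 2.38 and 1.89 TPM in fru+ and 4.16 and 4.64 TPM in fru- cells of males, and 3.37 and 2.04 TPM in fru+ and 4.13 and 3.24 TPM in fru- cells of females. The male groups did not overlap, and in females the groups overlapped only where 3.37 TPM in fru+ passed 3.24 TPM in fru-. The combined difference was -0.57 (SE 0.25, interval -1.14 to -0.01, unadjusted p = 0.048, adjusted p = 0.21 by limma), the most negative of the 10, and the male one was -0.79 (SE 0.36, adjusted p = 0.38 by limma).

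ftz-f1, a nuclear receptor that makes tissues competent for later ecdysone pulses, measured 78.2 and 59.9 TPM in fru+ and 86.8 and 102 TPM in fru- cells of males, and 93.8 and 53.4 TPM in fru+ and 65.6 and 79.4 TPM in fru- cells of females. The female fru+ pair enclosed the female fru- pair. Its male difference was -0.45 (SE 0.27, interval -1.06 to 0.15, adjusted p = 0.51 by limma) and its female difference -0.03 (interval -0.63 to 0.58).

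Kr-h1, the target that reports juvenile hormone receptor activity in larvae, was lowest in male fru+ cells. It measured 19.8 and 15.02 TPM in fru+ and 31.2 and 31.0 TPM in fru- cells of males, and 28.1 and 22.97 TPM in fru+ and 25.6 and 22.9 TPM in fru- cells of females. In the reference rows both male fru+ libraries were below all 6 others, and both male fru- libraries were above all others. In the assembled loci described below, male fru+ replicate 1 was at 25.4 TPM. That was above female fru+ replicate 2 (22.5 TPM) and both female fru- libraries (24.2 and 23.1 TPM). The male difference of Kr-h1, -0.81 (SE 0.24, interval -1.35 to -0.28), had the smallest unadjusted p among the members in any comparison (0.0070), but its adjusted p was 0.20 by limma (0.17 with the replicate block). It was -0.63 in the replicate 1 sorts and larger in size in the replicate 2 sorts. In females the difference was 0.07 (interval -0.47 to 0.60). The interaction of -0.88 (SE 0.34, interval -1.64 to -0.12) had an unadjusted p of 0.027 and an adjusted p of 1.00 by limma. Between fru+ cells of the sexes Kr-h1 was 0.53 lower in males (interval -1.07 to 0.01, adjusted p = 1.00 by limma).

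**Figure D3:**
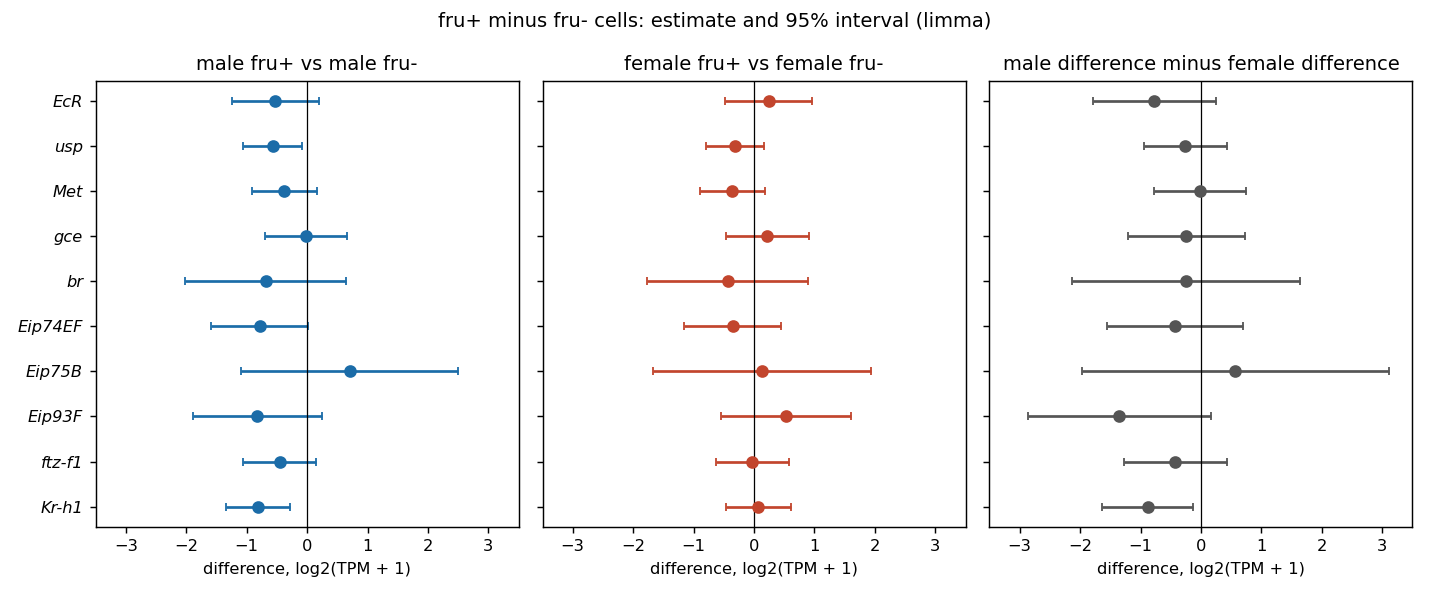
Difference between fru+ and fru- cells on the log2(TPM + 1) scale for each hormone gene in males (left) and females (middle), and the male minus the female difference (right); points are limma estimates and bars 95% intervals. In males 9 of 10 points lie left of 0, most intervals in all 3 panels cross 0, and Kr-h1 and usp in males and Kr-h1 in the right panel do not.

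Between male and female fru- cells, 6 of 10 members, EcR, br, Eip74EF, Eip93F, ftz-f1 and Kr-h1, had both male libraries above both female ones, beside 20.5% of tested genes. After median-of-ratios scaling 5 of 10 did, with usp in and br and Eip74EF out, beside 17.8% of tested genes. With the assembled loci described below the count was 3 of 10, EcR, br and Kr-h1, beside 16.3% of tested genes, and ftz-f1 had the opposite order. Of the fru+ cells, gce and Kr-h1 were lower in both male libraries than in both female ones, beside 12.6% of tested genes, and 0 members were higher, beside 17.0%. With the assembled loci gce and Eip93F were lower, beside 11.2% of tested genes, and Eip74EF was higher, beside 14.8%, while Kr-h1 overlapped. usp, Met, gce and br are X-linked. Their differences between all males and all females did not pass the test, like those of the autosomal members.

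The tables held a second account of each gene, in loci assembled from the reads, and for 6 of 10 members it gave a different level. Assembled loci were given to the reference gene of the same strand with the greatest shared over joint span. Over the tested genes the assembled loci held over 2 times the TPM of the reference row in the median library for 4.93% of genes, and among the members for gce, br, Eip74EF, Eip75B, Eip93F and ftz-f1. Met was identical in both, and Kr-h1 differed by 0.948 to 1.28 times. gce had 20.2 to 55.6 TPM in assembled loci against 5.37 to 7.72 TPM in its reference row, Eip93F 32.0 to 149 TPM against 4.04 to 15.9 TPM, and br 21.2 to 86.8 TPM against 4.04 to 24.9 TPM. Which reads make up these differences was not tested.

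The order of some levels therefore depended on the row used. Met exceeded gce by 6.31 to 13.1 times in the reference rows and by 0.857 to 3.29 times in the assembled loci. Eip74EF, the lowest member in the reference rows, was at 9.71 to 161 TPM in assembled loci. Its main assembled locus began 44.0 or 44.1 kb from the annotated 3′ end and ran to the 5′ end. In the 4 libraries where it extended 2300 bases past the annotated 5′ end it had 90.3 to 158 TPM, and in the 4 where it ended within 76 bases of it, 6.25 to 26.2 TPM. Those 4 long versions came from both male fru+ libraries, male fru- replicate 1 and female fru- replicate 1, so they did not follow a group. In one library, female fru+ replicate 2, no assembled locus was assigned to usp, and ftz-f1 was at 20.0 TPM against 159 to 328 TPM elsewhere.

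With the assembled loci, 7 of 10 members (EcR, usp, Met, br, Eip75B, Eip93F and Kr-h1) had both male fru+ libraries below both male fru- libraries, beside 27.3% of tested genes, and gce and Eip74EF had the opposite order, beside 13.0%. EcR, usp, Met, br, Eip93F and Kr-h1 thus had the lower male fru+ order in both accounts, whereas Eip75B and Eip74EF changed direction between them. Both accounts rest on the same reads, so a shared order is not separate evidence. Met was identical in both, and the median ratio of assembled to reference TPM was 0.985 for usp and 1.01 for Kr-h1. gce was at 41.6 to 55.6 TPM in the 4 fru+ and 20.2 to 30.8 TPM in the 4 fru- libraries in assembled loci, without overlap, and its smallest adjusted p in any comparison there was 0.14 by limma.

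**Figure D4:**
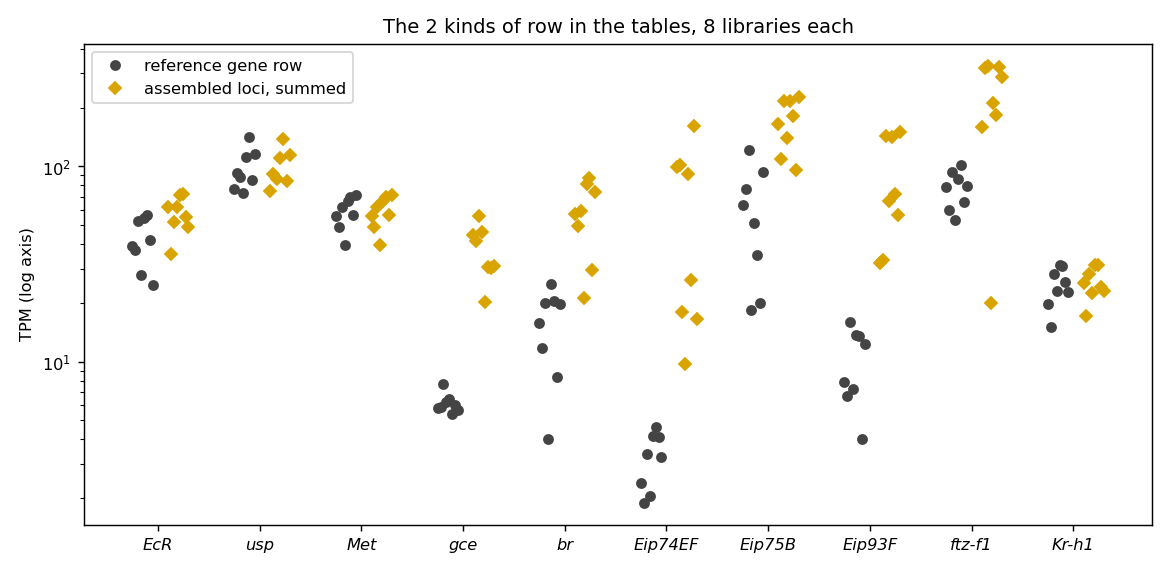
TPM (log axis) of each hormone gene in its reference row (circles) and in the loci assembled from the reads (diamonds), with 1 point per library; usp in female fru+ replicate 2, to which no locus was assigned, is left out. The 2 clouds coincide for usp, Met and Kr-h1 and lie apart without overlap for gce, Eip74EF and Eip93F.

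The wider pathways gave 7 calls between fru+ and fru- cells. Of 53 further genes of ecdysone and juvenile hormone synthesis, transport, reception and response, all were in the tables and 38 were tested. Over all fru+ against all fru- libraries 2 rose and 5 fell, 18.4% of those tested beside 5.29% of all tested genes. The list was chosen with earlier results of these data known, so these shares cannot be read as an excess. In the male and female fru comparisons 1 gene rose in each, 1 was higher in all males than in all females, and 0 passed in the other 3 comparisons.

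JhI-21, an amino acid transporter gene first found as juvenile hormone inducible, rose in fru+ cells of both sexes. It measured 136.8 and 132.9 TPM in fru+ and 33.7 and 29.8 TPM in fru- cells of males, and 163 and 195 TPM in fru+ and 39.5 and 42.1 TPM in fru- cells of females. The difference was 2.05 in males (SE 0.18, adjusted p = 0.0017 by limma) and 2.102 in females (SE 0.18, adjusted p = 0.0021 by limma), with an interaction of -0.05 (interval -0.61 to 0.52). The lowest fru+ library (132.9 TPM) stood above the highest fru- library (42.1 TPM), and the difference over both sexes, 2.08, passed under each of 16 alternatives. The female difference alone missed the threshold under 3 of 17, with adjusted p of up to 0.060 by limma.

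ImpL2, a secreted binding protein of insulin-like peptides that ecdysone induces in imaginal discs, rose by 2.34 over all fru+ libraries (SE 0.46, adjusted p = 0.024 by limma). Its levels were 96.2 and 138.8 TPM in fru+ and 14.3 and 22.7 TPM in fru- cells of males, and 132.3 and 266 TPM in fru+ and 18.0 and 105 TPM in fru- cells of females. Female fru- replicate 2 thus reached the fru+ range. The call was lost without either male fru+ library, either male fru- library or female fru+ replicate 2, with adjusted p of 0.079 to 0.095 by limma, and also with no filter on low values (0.13), no variance trend (0.076) and the assembled loci (0.16).

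Jheh1, a juvenile hormone epoxide hydrolase gene, fell by 2.05 over all fru+ libraries (adjusted p = 0.0088 by limma), from 3.30 to 7.08 TPM in fru- to 0 to 1.01 TPM in fru+ libraries. Its neighbours Jheh2 (-1.38, adjusted p = 0.050 by limma, just above the threshold, and 0.043 with the replicate block) and Jheh3 (-1.86, adjusted p = 0.053 by limma) did not pass. The nuclear receptor genes svp (-1.70), Hr51 (-0.88) and Hr96 (-0.69) and the actin-binding Chd64 (-0.68), which is known to bind juvenile hormone response elements, fell with adjusted p of 0.022 to 0.047 by limma. Hr51, which is known to act in the remodelling of Kenyon cell axons, ranged from 10.1 to 22.2 TPM in fru+ and from 14.7 to 46.0 TPM in fru- libraries. It was also 0.99 higher in all males than in all females (adjusted p = 0.15 by limma). Any part of Kenyon cell content in its values was not tested. Jheh1 lost its call without male fru+ replicate 1 or male fru- replicate 2. svp lost it without any 1 of the 4 male libraries or female fru+ replicate 2, Hr51 and Chd64 without any 1 library other than female fru- replicate 2, and Hr96 whichever library was left out. Median-of-ratios scaling kept the direction of Hr51, Hr96 and Chd64 and ended their calls. In all, the call was lost under 4 of 15 alternatives for Jheh1, 8 of 15 for svp, 12 of 16 for Hr51 and for Chd64 and 13 of 16 for Hr96. In assembled loci the svp difference was -0.81 (adjusted p = 0.21 by limma). Glial marker sums were lower in every fru+ than in every fru- library. The Kenyon cell sums of the pools overlapped, as did sNPF, Mef2 and mamo alone. The Kenyon cell markers ey (11.8 to 12.9 TPM in fru+, 30.8 to 53.0 TPM in fru-), prt, dac and Dop1R2 were lower in every fru+ than in every fru- library. The part of glial or Kenyon cell content in the values of Jheh1, svp, Hr51, Hr96 and Chd64 was not tested.

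Eip78C, an ecdysone-induced nuclear receptor gene, was higher in males, with 10.9 and 11.9 TPM in their fru+ and 9.11 and 4.87 TPM in their fru- cells against 1.59 to 2.51 TPM in the 4 female libraries. The difference was 1.61 (SE 0.26, adjusted p = 0.0497 by limma). It lay just inside the threshold and kept the call under 0 of 15 alternatives, among them each library left out and the replicate block (adjusted p = 0.10 by limma). In assembled loci the difference was -0.40.

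**Figure D5:**
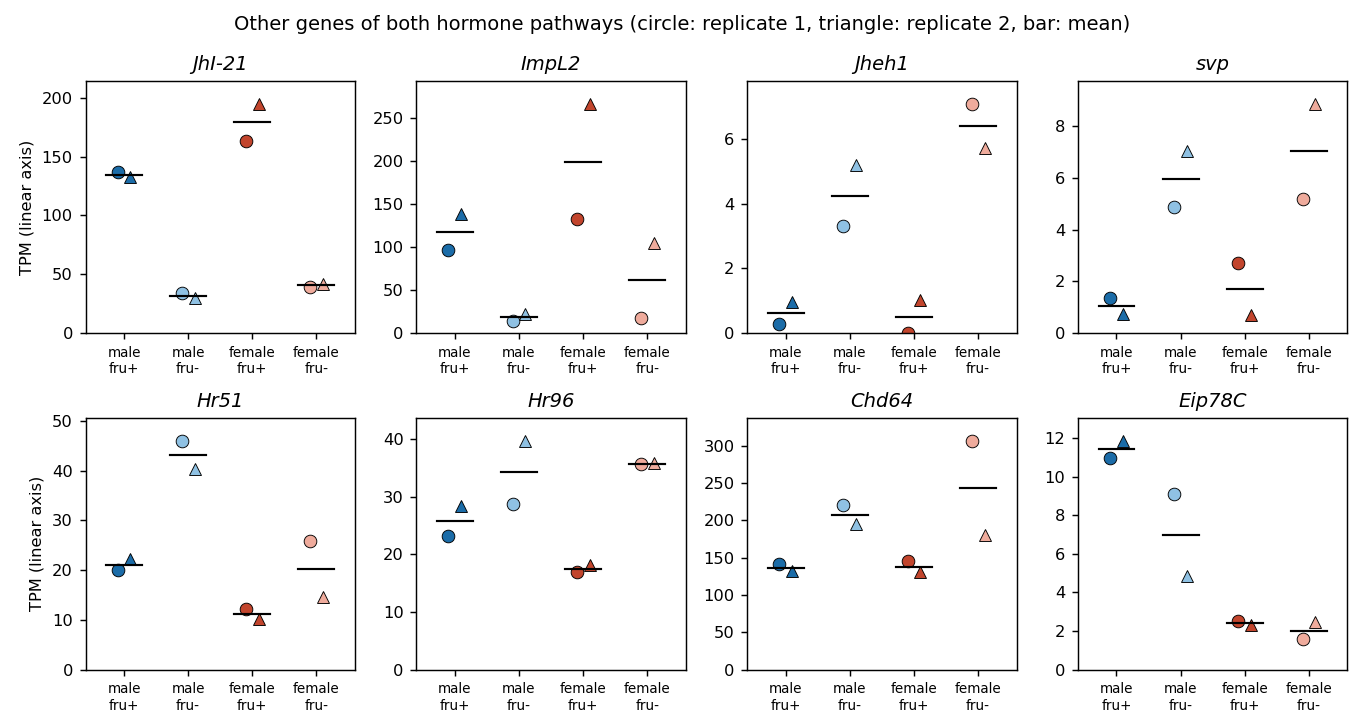
TPM (linear axes from 0) of the 8 further pathway genes that passed the test in at least 1 comparison; circles are replicate 1, triangles replicate 2 and bars the mean of the 2 libraries. JhI-21 shows 4 high fru+ and 4 low fru- libraries, ImpL2 the same except for female fru- replicate 2 at 105 TPM, and Eip78C is highest in male cells.

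Hormone synthesis genes were scarcely detected. Of 8 ecdysone synthesis genes only nvd (1.40 to 4.47 TPM) and sro (0.481 to 4.66 TPM) were tested, and phm was at 0 in all 8 libraries. Reception and cofactor genes were present. DopEcR, a membrane receptor for dopamine and ecdysone, was at 189.9 to 385 TPM with a combined difference of 0.12 (interval -0.31 to 0.55). Hsp83, the chaperone that works with EcR and Met, was at 1909 to 4479 TPM with a difference of -0.42 (interval -0.92 to 0.08).

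The tested genes whose profile over the 8 libraries was closest to that of a member were found by the root mean square difference of log2(TPM + 1) after removing each gene's mean. For EcR these were Yp3, IntS6 and KP78b (0.14, 0.16 and 0.17, beside a deviation of 0.40 of EcR from its own mean). For Eip93F they were CG4587, wech and slo (0.12, 0.14 and 0.15, beside 0.57), and for Kr-h1 Smyd4-1, Ndae1 and CG13685 (0.13, 0.14 and 0.15, beside 0.32). The points share library depth and cell makeup, and Yp3 and KP78b averaged only 1.45 and 1.31 TPM.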

How the data were processed

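Poly-A RNA of sorted cells was sequenced as unstranded paired reads of 150 bp. Per the labels and the study's methods, the authors trimmed reads, aligned them to dm6 with HISAT2, kept unique alignments, removed duplicates and made 1 StringTie 2.1.1 gene table per library. The deposited TPM (a length-scaled signal), FPKM and coverage columns hold reference gene rows and assembled loci, each set scaled to the same total, apart from a small share. TPM keeps no read depth, so aligned bases were taken from the deposited coverage over FPKM, and no counting interval was given.

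Reference rows were summed per gene, log2(TPM + 1) was taken, and genes at 1 TPM or more in at least 2 libraries were fitted with limma 3.58.1 (R 4.3.3, trended variance, a mean for each group, all 8 libraries, 7 contrasts). The script was tested on simulated data. Intervals are 95% intervals of that fit. The study's count test could not be used on TPM. Replicate numbers pair the groups, since the methods state that the cells of a replicate were sorted in 1 session. Replicate differences of the groups correlated from -0.038 to 0.25 over genes. The block is an alternative.

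The 10 members and all lists were chosen with earlier results of these data known. Named were all members, pathway genes past the threshold, a few of the most abundant others, and 3 genes of like pattern for EcR, Eip93F and Kr-h1. jhamt, sro, phm, Jheh2, Jheh3, mamo, ey, prt and the other marker genes named were picked after their values were seen. EcI, Alien, let-7-C and JhI-1 were found as Oatp74D, alien, lncRNA:let7C and RNaseZ through RefSeq synonyms. Alternatives were another pseudocount (0.1), no filter, a mean of at least 10 TPM, median-of-ratios scaling, no trend, only the libraries compared, the replicate block and each library left out. Assembled loci, and leaving out female fru+ replicate 2 with female fru- replicate 1, were chosen after seeing the data.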

Additional observations from a re-analysis of the deposited data

How the results depend on the processing

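Each group had 2 libraries, and the tables hold no read counts. No member passed in any comparison under any alternative, and the smallest adjusted p of a member anywhere was 0.082 by limma. Of 567 values of named genes under the alternatives, 478 kept their direction and side of the threshold. A further 74 kept their direction and lost the call, and 15 reversed. Most of these values belong to members, which had no call to lose. Among called genes, the call was lost under 8 of 16 alternatives for ImpL2, 4 of 15 for Jheh1 and 8 of 15 for svp. It was lost under 12 of 16 for Hr51 and for Chd64 and 13 of 16 for Hr96. Eip78C lost it under 14 of 15 and reversed in the other. JhI-21 lost it under 3 of 17 in females, 0 of 17 in males and 0 of 16 over both sexes. The replicate block changed no member's call, and its effects on Eip78C, Jheh2 and the female count are given beside them. With that block fru itself had adjusted p of 0.065 in males and 0.055 in females by limma and lost both calls. The calls of prt in males (adjusted p = 0.055 by limma) and ey in females (0.058) were also lost. The counts of all genes called moved widely, and the cause was not tested. In the order male fru, female fru, fru+ sexes, fru- sexes, all fru, all sexes and interaction, the main counts were 52, 66, 9, 11, 535, 23 and 0. Leaving out 1 library in turn gave 5 to 155, 4 to 236, 5 to 12, 6 to 18, 111 to 515, 11 to 32 and 0 to 2. Assembled loci gave 26, 27, 29, 23, 79, 38 and 26. Without a filter the counts were 14, 0, 19, 8, 65, 10 and 0. Without the trend, male, female and all fru gave 18, 32 and 231. The libraries compared alone gave 182 for male fru, 3 for female fru and 6 for fru- sexes. The replicate block gave 34 for female fru. A mean of at least 10 TPM gave 6 for fru- sexes and 9 for all sexes. A pseudocount of 0.1 gave 1 for the interaction. Without female fru+ replicate 2 and female fru- replicate 1 the male, female and all fru counts were 180, 8 and 183 and the interaction 1; EcR over all fru reversed to 0.27. Over all fru and 1 library left out, EcR ran from -0.37 to 0.083 (0.083 without female fru+ replicate 2, 0.04 without female fru- replicate 1), Eip75B from -0.25 to 1.08 (-0.25 without female fru+ replicate 1, -0.13 without female fru- replicate 1) and Eip93F from -0.50 to 0.20 (0.11 without female fru+ replicate 2, 0.20 without female fru- replicate 2). In males gce ran from -0.13 to 0.094 (0.094 without male fru- replicate 1) and reversed to 0.10 under median-of-ratios scaling. In assembled loci Eip75B reversed to -0.16 over all fru and -0.56 in males, gce to 0.76, Eip74EF to 1.02 and ftz-f1 to 0.19 in males, and Eip78C to -0.40 between the sexes.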
